A study of Mus musculus with 27 samples.

Results

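Plasma cells were found among single cells of digested mouse aorta by their RNA. A barcode was kept with at least 500 genes, at least 1000 unique molecular identifiers (UMIs, 1 for each captured RNA molecule) and at most 15% mitochondrial UMIs. A kept barcode was called a plasma cell where at least 3 of the 5 markers Mzb1, Derl3, Tnfrsf17, Jchain and Prdm1 were detected and Siglech, a marker of plasmacytoid dendritic cells, had 0 UMIs. The rule found 373 plasma cells among 43812 kept barcodes, or 0.851%. There were 102 and 30 in TKO replicates 1 and 2, against 158 and 83 in Cre replicates 1 and 2. The members were thus chosen by the UMIs of these 6 genes, so the levels of these genes, and of any gene in plasma cells against other cells, are a description with no test.

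The series holds 27 samples in 10 groups, all from C57BL/6 mice infused with angiotensin II (Ang II), a peptide that raises blood pressure, for 28 days. Single cells came from non-stripped aorta of TKO (2 libraries) and Cre (2 libraries) mice. Bulk RNA came from non-stripped aorta of TKO and Cre mice (3 libraries each), from stripped aorta of TKO (2) and Cre (4) mice (stripped by the tissue label, while the titles of these 6 samples read nonstripped), and from isolated aortic fibroblasts of TKO and Cre mice (3 each). A last pair of groups was non-stripped TKO aorta given an IL-9 antibody (2 libraries) or control IgG (3) during the infusion. The labels do not define TKO or Cre, do not say whether a library pools animals and do not say that replicates are separate animals. The p-values therefore measure only the spread between these libraries, which may be technical. Where in the vessel wall the plasma cells sat was not measured.

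Plasma cells are the antibody-secreting end stage of the B lineage. Blimp-1, the product of Prdm1, and XBP1 shut down the B cell programme and enlarge the endoplasmic reticulum (ER), where heavy and light chains are folded, joined by the J chain into polymers of IgM and IgA, and sent to the surface. The constant region of the heavy chain sets the antibody class, and the joined V segments of the heavy and light chains set what the antibody binds. In vessels, plasma cells are known from the outer, connective tissue side of the wall, where antibodies can be deposited during hypertension and atherosclerosis.

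The libraries held 114998 barcodes. Plasma cells had a median of 3283 and 2620.5 UMIs in TKO libraries, against 6390.5 and 2685 in Cre libraries, so Cre replicate 1 was the deepest. Between 175 and 338 barcode sequences were shared by each pair of libraries, and 0 were shared between their plasma cells. Markers of other lineages were present in many plasma cells: 3 or more of 8 fibroblast markers were detected in 46.1% and 36.7% of plasma cells in TKO libraries, against 10.1% and 15.7% in Cre libraries. Among B cells of the same libraries these shares were 45.0% and 12.3% in TKO, against 2.80% and 5.17% in Cre. In all, 195 of 373 plasma cells had at least 3 markers of a lineage other than B cells, and the counts of genes called are given with and without those cells. No doublet caller was run, and intervals and floors below cover counting error only. Klf10, named in the title of the series, had 822, 696 and 0 counts in the non-stripped TKO bulk libraries and 1049, 943 and 1400 in the non-stripped Cre bulk libraries, so 1 of 3 TKO libraries had none (edgeR, log2 fold change -1.02, adjusted p = 0.595).

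The cells matched their label by a measure the rule did not use. Immunoglobulin genes made up a median of 38.6% and 35.0% of a plasma cell's UMIs in TKO libraries, against 42.3% and 29.7% in Cre libraries. In B cells of the same libraries, taken by 3 or more of 8 B cell markers, the median was 0.615% and 0.550% in TKO and 0.808% and 0.557% in Cre. Of the 373 cells, 361 had at least 5% immunoglobulin UMIs. Just inside the rule, the 217 cells with 3 markers had a median of 35.9% immunoglobulin UMIs, and just outside it, the 389 barcodes with 2 markers had a median of 1.24%. The outside group was mixed, since 42.4% of it held at least 10% immunoglobulin UMIs. Immunoglobulin RNA is so abundant in these cells that it dilutes all other genes, so levels of other genes in single cells are given as CPM, that is UMIs of a gene in 1000000 UMIs outside the immunoglobulin genes.

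Jchain, which encodes the joining chain of IgM and IgA polymers, was the most abundant plasma cell gene outside the immunoglobulin loci among those listed. Its level was 76284 and 58244 CPM in plasma cells of TKO libraries, against 58637 and 39368 CPM in those of Cre libraries. B cells had 355 and 149 CPM in TKO libraries and 18.8 and 790 CPM in Cre libraries. Mzb1, an ER chaperone of IgM assembly, had 1485 and 1826 CPM in TKO plasma cells and 1796 and 2141 CPM in Cre plasma cells. Derl3, which moves misfolded proteins out of the ER, was at 438 and 444 CPM in TKO plasma cells and at 417 and 389 CPM in Cre plasma cells, while B cells of the 4 libraries had between 2.73 and 5.62 CPM. Tnfrsf17 encodes BCMA, the receptor for the survival factor APRIL. It stood at 244 and 205 CPM in TKO plasma cells and at 176 and 147 CPM in Cre plasma cells, with B cells at no more than 3.06 CPM. Each of these markers was thus higher in plasma cells than in B cells of every library, as the rule requires of its own genes.

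Most other plasma identity genes were also higher in plasma cells. Of the 19 on the list that the rule did not use, 16 were higher than in B cells in all 4 libraries and 2 were lower, while 15.9% of 8117 expressed genes were higher and 22.3% lower by the same count. Expressed genes are those outside the immunoglobulin loci with at least 20 CPM over plasma and B cells added, a cut not set on the lists. Xbp1, the transcription factor that builds the secretory ER, averaged 1943 CPM in plasma cells and 80.8 CPM in B cells. Irf4, the factor that starts plasma cell differentiation, averaged 277 CPM in plasma cells and 214 CPM in B cells and was not higher in every library. Txndc5, a disulfide isomerase of the ER, averaged 1309 CPM in plasma cells and 50.2 CPM in B cells. Sdc1, which encodes the plasma cell surface proteoglycan CD138, was at 217 and 136 CPM in TKO plasma cells and 216 and 85.9 CPM in Cre plasma cells, against at most 11.5 CPM in B cells. Its UMIs were found in 31.4% and 20% of plasma cells in TKO libraries, against 53.2% and 18.1% in Cre libraries. Many plasma cells thus had no Sdc1 UMI, and the part of depth in this was not tested. The 2 lower genes were Cd38 and Fcrl5, surface proteins of B cells and plasma cells. All 24 mature B cell genes were lower in plasma cells in all 4 libraries. All 8 markers that defined the B cells are in this list, so its count is partly set by that choice. Cd74, the invariant chain of MHC class II, had a mean of 3147 CPM in plasma cells and 4752 CPM in B cells. Ms4a1, which encodes CD20, was at 85.8 and 273 CPM in TKO plasma cells and at 100 and 217 CPM in Cre plasma cells, against 666 to 827 CPM in B cells. Ebf1, a factor of B cell identity, averaged 338 CPM in plasma cells and 1261 CPM in B cells. Barcodes below the cell threshold, which hold free RNA and poor cells, had Cd74 at 1014 to 2291 CPM over the 4 libraries.

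**Figure D1:**
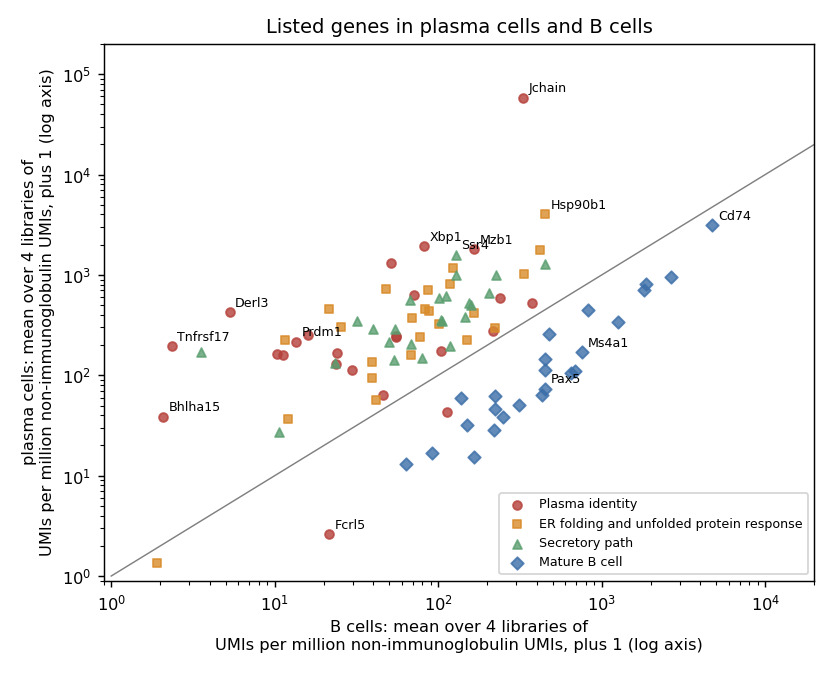
Each point is 1 listed gene, placed by its mean level over the 4 libraries in B cells (horizontal) and plasma cells (vertical), as CPM outside the immunoglobulin genes plus 1 on log axes. Plasma identity, ER and secretory genes lie mostly above the line of equal level, with Jchain highest, and the 24 mature B cell genes lie below it.

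The secretory machinery was higher in plasma cells for nearly all listed genes. Of 24 ER folding and unfolded protein response genes, 21 were higher in plasma cells in all 4 libraries and 0 lower, and of 24 genes of the secretory path all 24 were higher. Hsp90b1, which encodes the ER chaperone GRP94, was the highest of the folding genes. It was at 4251 and 2815 CPM in TKO plasma cells and at 5319 and 3682 CPM in Cre plasma cells, against 403 to 542 CPM in B cells. Hspa5, which encodes BiP, the chaperone that holds free heavy chains, averaged 1757 CPM in plasma cells and 415 CPM in B cells. Pdia4, a disulfide isomerase, averaged 1174 CPM in plasma cells and 121 CPM in B cells. Sel1l, part of the complex that removes misfolded ER proteins, averaged 716 CPM in plasma cells and 46.7 CPM in B cells. Creld2, an ER stress gene, averaged 459 CPM in plasma cells and 20.4 CPM in B cells. These 3 genes ranged over folding, removal and stress response. Ssr4, a subunit of the complex beside the protein channel of the ER, averaged 1588 CPM in plasma cells and 127 CPM in B cells. Sec61g and Sec61b, subunits of that channel, averaged 1293 and 1002 CPM in plasma cells, against 446 and 225 CPM in B cells.

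The promoters of several of these genes carry the ER stress response element, spelled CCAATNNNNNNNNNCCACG, which is bound by ATF6 and XBP1 together with NF-Y. It was searched on both strands from 250 bases before to 50 bases after the start of each gene, in RefSeq promoters of GRCm38.p6. It was found in 8 of 21 promoters of the ER folding list that matched the table (38.1%), in 1 of 19 of the plasma identity list, in 0 of 17 of the secretory path and in 0 of 14 of the mature B cell list. Over all 27025 promoters it was found in 37, or 0.137%. A match is a description of the letters and not evidence of binding here. The promoters of Hspa5 (chr2:34771840-34772139, plus strand), Hsp90b1 (chr10:86705395-86705694, minus strand, 2 matches) and Derl3 (chr10:75893148-75893447, plus strand, the match of the identity list and a marker of the rule) are shown, read along the gene from 5′ to 3′ with each match in capitals.
Hspa5: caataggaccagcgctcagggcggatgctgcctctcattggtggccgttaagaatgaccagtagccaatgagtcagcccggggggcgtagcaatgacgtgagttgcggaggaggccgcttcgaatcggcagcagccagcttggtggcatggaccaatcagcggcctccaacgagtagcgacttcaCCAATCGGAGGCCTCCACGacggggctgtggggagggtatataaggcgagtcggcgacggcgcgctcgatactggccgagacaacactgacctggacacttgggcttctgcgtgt
Hsp90b1: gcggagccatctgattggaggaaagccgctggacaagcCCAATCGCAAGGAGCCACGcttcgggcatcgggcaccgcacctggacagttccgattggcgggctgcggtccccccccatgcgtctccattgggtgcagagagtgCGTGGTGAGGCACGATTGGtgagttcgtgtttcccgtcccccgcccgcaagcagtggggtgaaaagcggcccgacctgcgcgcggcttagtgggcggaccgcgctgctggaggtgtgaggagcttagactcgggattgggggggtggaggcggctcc
Derl3: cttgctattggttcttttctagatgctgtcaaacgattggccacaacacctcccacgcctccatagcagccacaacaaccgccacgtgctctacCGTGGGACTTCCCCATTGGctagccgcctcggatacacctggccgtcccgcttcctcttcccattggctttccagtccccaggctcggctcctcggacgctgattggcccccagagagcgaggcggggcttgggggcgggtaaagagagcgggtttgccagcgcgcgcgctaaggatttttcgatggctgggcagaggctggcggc

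Homing and survival receptors lay on both sides. By the same count, 15.9% of 8117 expressed genes were higher than in B cells in all 4 libraries and 22.3% lower. Of 18 homing receptors, Ccr10, Epcam, Itgal and Itgb1 were higher in plasma cells than in B cells in all 4 libraries, and 4 were lower, among them Cxcr4, Itgb7 and S1pr1. Epcam, an adhesion molecule of epithelia that some plasma cells carry, was at 135 and 17.1 CPM in TKO plasma cells and 97.6 and 70.7 CPM in Cre plasma cells, against at most 9.55 CPM in B cells. Of 19 survival receptors and BCL2 family genes, 6 were higher in all 4 libraries (Cd28, Il5ra, Il6st, Mcl1, Tnfrsf13b and Tnfrsf17) and 6 were lower. In TKO replicate 2, Epcam and Il5ra each had 1 UMI in plasma cells, so their place in these counts rests on it. Mcl1, the BCL2 family member that plasma cells need to survive, averaged 486 CPM in plasma cells and 347 CPM in B cells, and Cd28, a receptor for CD80 and CD86, averaged 113 CPM in plasma cells and 28.7 CPM in B cells.

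Of secreted factors, Cxcl10 and Il10 were higher in plasma cells than in B cells in all 4 libraries. In TKO replicate 2, Il10 rested on 1 UMI in plasma cells. Cxcl10, an interferon-induced chemokine, had 62 and 6 UMIs in TKO plasma cells and 352 and 19 UMIs in Cre plasma cells. These were 280 and 102 CPM in TKO plasma cells and 491 and 96.0 CPM in Cre plasma cells, against 4.60 to 48.8 CPM in B cells. Its UMIs were found in 17.6% and 16.7% of plasma cells in TKO libraries, against 37.3% and 7.23% in Cre libraries, so Cre replicate 1 held most of them. Of 18 niche factors 2 were higher and 6 lower in all 4 libraries, and of 14 secreted regulators 1 and 4. Of 12 Kruppel-like factors these counts were 1 (Klf6) and 1 (Klf2), and of 15 proliferation genes 2 (Cks1b and Ube2c) and 0. Over all 8117 expressed genes the shares were 15.9% and 22.3%. Those genes had to reach 20 CPM and the listed genes did not, so the shares are not matched in level. Only 14 of the 18 niche factors and 11 of the 14 secreted regulators had a UMI in plasma cells.

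Both genes of the title were scarce in plasma cells. Klf10, a transcription factor that responds early to TGF-β, had 7 and 2 UMIs in TKO plasma cells and 20 and 4 UMIs in Cre plasma cells, or 31.6 and 34.1 CPM in TKO and 27.9 and 20.2 CPM in Cre. B cells had 18.3 to 33.7 CPM and barcodes below the cell threshold 30.6 to 45.4 CPM (of all UMIs, immunoglobulin genes included). Plasma cells of TKO replicate 2 were just above the B cell range, and those of both Cre libraries were below the range of the barcodes. Il9 had 0 UMIs in plasma cells, B cells and fibroblasts of all 4 libraries. Il9r, the IL-9 receptor chain, had 0 and 1 UMIs in TKO plasma cells and 4 and 3 UMIs in Cre plasma cells.

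Most plasma cells could be given 1 antibody class. A class was called where its constant genes had at least 3 UMIs and over 50% of all heavy chain constant UMIs, and this held for 372 of 373 cells. The median cell had 100% of these UMIs in its own class, and 358 of 372 cells had at least 90%. IgM was the most frequent class, with 46 and 20 cells in TKO libraries and 115 and 41 cells in Cre libraries, 222 cells or 59.7% in all. IgA followed with 43 and 7 cells in TKO libraries and 16 and 18 cells in Cre libraries, 84 cells or 22.6%. IgG made up the remaining 66 cells or 17.7%, with 13 and 3 cells in TKO libraries and 27 and 23 cells in Cre libraries. The 3 IgG cells of TKO replicate 2 had 0.455% to 1.16% immunoglobulin UMIs and 3 to 6 IgG constant UMIs each, close to the B cell level, so their class is uncertain. Counting only cells with at least 5% immunoglobulin UMIs, there were 13 and 0 IgG cells in TKO libraries and 26 and 22 in Cre libraries. Within IgG, Ighg2b was called in 4 and 0 cells in TKO libraries and in 12 and 13 cells in Cre libraries. Ighg3 was called in 0 and 0 cells in TKO libraries and in 12 and 4 cells in Cre libraries, and Ighg1 in 9 and 2 cells in TKO libraries and 3 and 6 cells in Cre libraries. No cell was called Ighg2c, Ighd or Ighe. In Cre replicate 1, some cells called Ighg2b also held Ighg2c, such as 295 UMIs of Ighg2b with 44 of Ighg2c. Others held Ighg2b alone, such as 2262 UMIs with 0 of Ighg2c. Whether reads were split between these genes was not tested, so Ighg2b calls may include Ighg2c cells. Kappa was the light chain of 328 cells and lambda of 45.

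**Figure D2:**
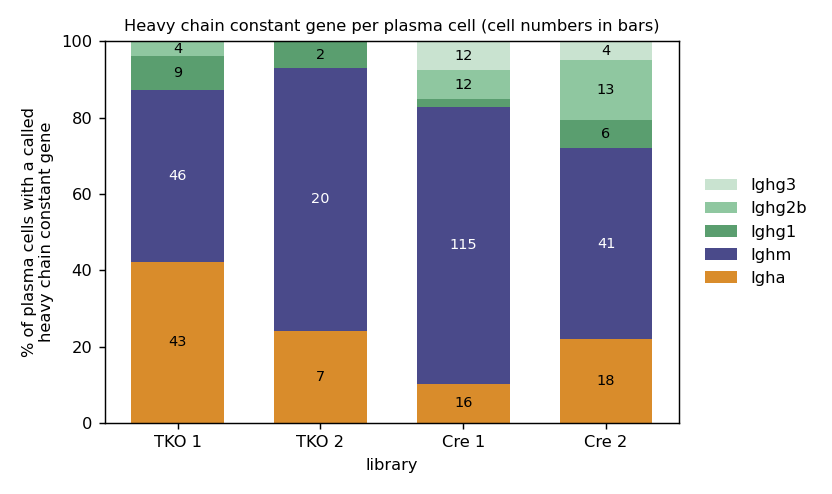
Stacked bars give the share (%) of plasma cells with each heavy chain constant gene in the 4 libraries, with TKO left of Cre and cell numbers inside the bars. Igha takes 43 cells of TKO replicate 1 and 16 of Cre replicate 1, and Ighg3 cells are present in both Cre libraries and in neither TKO library.

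The IgA share was 42.2% (95% exact Clopper-Pearson interval 32.4% to 52.3%) and 23.3% (9.93% to 42.3%) in TKO libraries, against 10.1% (5.90% to 15.9%) and 21.95% (13.6% to 32.5%) in Cre libraries. TKO libraries had the higher IgA shares, but TKO replicate 2 and Cre replicate 2 differed by less than their counting error. The mean difference was 16.7 percentage points (exact permutation test of 2 against 2 libraries, two-sided p = 0.333, the smallest p this design allows). Without TKO replicate 1 the difference was 7.29 points, and without TKO replicate 2 it was 26.1 points.

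IgA and IgM plasma cells differed in a few genes outside the immunoglobulin loci. This comparison was chosen after seeing the data. UMIs were summed per class and library and tested with edgeR's quasi-likelihood test with the library as a block, immunoglobulin genes left out and Benjamini-Hochberg adjustment. Of 1251 genes tested, 6 were higher in IgA cells, or 0.48%, and 0 (0%) lower. At an unadjusted p under 0.05, 45 were higher and 59 lower, and DESeq2 called 7 higher and 2 lower. The gene of smallest p among those lower in IgA cells, Jun, an immediate early transcription factor, did not pass (log2 fold change -1.01, adjusted p = 0.0572). Glipr1, a plasma cell gene of the pathogenesis-related protein family, had 42 and 2 UMIs in IgA cells of TKO libraries and 50 and 15 in those of Cre libraries. IgM cells had 8 and 2 UMIs in TKO libraries and 84 and 7 in Cre libraries. Its log2 fold change of IgA over IgM was 2.18 ± 0.28 (SE, adjusted p = 0.00391), and it was higher in IgA cells of 4 of 4 libraries. Without Cre replicate 2 it no longer passed (adjusted p = 0.0751). Tmem176b, a membrane protein of antigen-presenting cells, had a log2 fold change of 1.34 ± 0.26 (adjusted p = 0.0449) and Hist1h1b, a histone H1 gene of dividing cells, 2.09 ± 0.29 (adjusted p = 0.00780). Hist1h1b had 0 UMIs in both classes of TKO replicate 2. None of the 6 genes passed without Cre replicate 2. The other 3 genes were the haemoglobin genes Hba-a1, Hbb-bs and Hba-a2, with log2 fold changes of 1.25 to 1.27. Of the lists, 1 of 18 tested identity genes (Glipr1) passed. Of 23 secretory path genes 19 had positive fold changes and 0 passed by edgeR or DESeq2 (3 at an unadjusted p under 0.05), and of 10 mature B cell genes 9 had negative ones and 0 passed by either tool (4 unadjusted). The median log2 fold change was 0.21 for the secretory path and -0.56 for mature B cell genes, against -0.0087 over all genes. Markers of red cells were in many of these barcodes: 3 or more erythroid markers were found in 51.0% and 10% of plasma cells in TKO and 12.03% and 14.5% in Cre, and their part in this result was not tested.

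Genes too scarce for that filter were read without it, again chosen after their values were seen. In that fit 10 of 14477 genes were higher in IgA cells (0.0691%) and 11 lower (0.076%). Ccr10 encodes the receptor for CCL27 and CCL28 that draws IgA plasma cells to mucosal epithelia. It had 15 and 2 UMIs in IgA cells of TKO libraries and 9 and 3 in those of Cre libraries, against 0 and 1 in IgM cells of TKO libraries and 1 and 0 in those of Cre libraries. Its UMIs were found in 20 of 84 IgA cells (23.8%, interval 15.2% to 34.3%) and in 2 of 222 IgM cells (0.901%, interval 0.109% to 3.22%). By CPM, this was a 49.6-fold ratio of IgA over IgM with a counting interval of 12.5 to 429 (edgeR without a filter, adjusted p = 1.11e-05). Ccr10 had 0 UMIs in B cells and in fibroblasts of all 4 libraries. The median depth was 3499 and 2639 UMIs in IgA cells of TKO libraries and 8104.5 and 2375.5 in those of Cre libraries, against 2995 and 2571 in IgM cells of TKO libraries and 6120 and 2764 in those of Cre libraries.

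Il10, the anti-inflammatory cytokine, showed the opposite pattern. It had 0 UMIs in 84 IgA cells, which allows a share of cells with a UMI of up to 3.57%, and 13, 1, 23 and 7 UMIs in IgM cells of TKO replicates 1 and 2 and Cre replicates 1 and 2. Against a floor of 3 counts over the IgA cells, its level was at least 4.29-fold lower in IgA than in IgM cells, and it passed in the fit without a filter (edgeR, adjusted p = 0.00978). It was found in 28 of 222 IgM cells. Itgb7, the β7 integrin chain that binds the gut vessel ligand MAdCAM-1, had 23 UMIs in IgA cells, 17 of them from Cre replicate 1, and 10 in IgM cells (edgeR without a filter, adjusted p = 0.0420). Ly6k, a surface protein listed with plasma cell identity, had 11 UMIs in IgA cells and 143 in IgM cells (edgeR without a filter, adjusted p = 0.0126). The gut homing receptor Ccr9 had 14 UMIs in IgA cells and 5 in IgM cells (adjusted p = 0.229) and Il5ra, a chain of the IL-5 receptor, had 3 and 44 (adjusted p = 0.868), and neither passed.

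**Figure D3:**
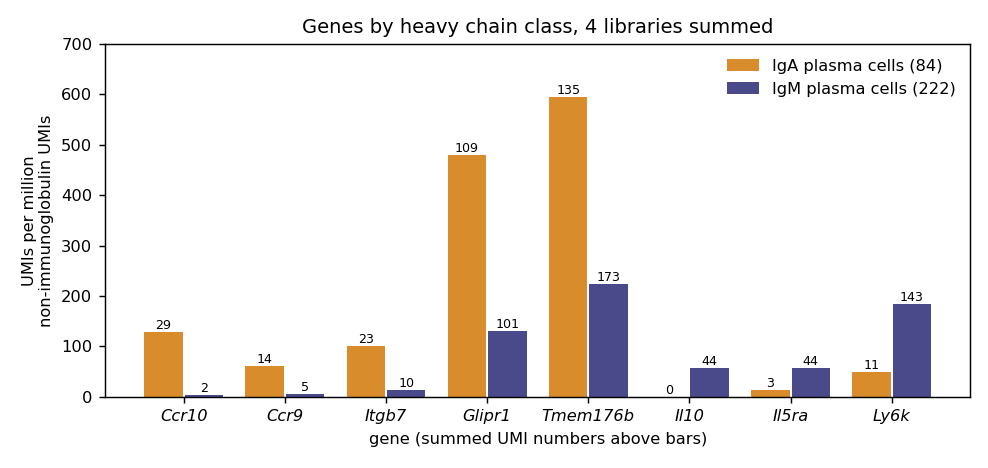
Bars give CPM outside the immunoglobulin genes of 8 genes in IgA (left bar) and IgM (right bar) plasma cells, summed over the 4 libraries, with summed UMIs above the bars. Ccr10 has 29 UMIs in IgA and 2 in IgM cells, and Il10 has 0 in IgA and 44 in IgM cells.

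Antibody V segments were read from the same RNA. A heavy and a light V segment were both called, each with at least 3 UMIs and over 50% of its chain's V UMIs, in 250 of 373 cells, which used 166 pairs. A pair repeated in a library can mark a clone, but V names alone, without the junction, cannot show it. Cells in pairs seen at least 2 times in their library made up 43.5% and 23.5% of cells with a pair in TKO libraries and 55.2% and 27.1% in Cre libraries. The cells with a pair numbered 69 and 17 in TKO libraries and 116 and 48 in Cre libraries. A repeat is more likely where more cells are read, so these shares cannot be compared between libraries. Of the 35 pairs seen in more than 1 cell, 32 held 1 class only. The largest pair within a library, Ighv7-3 with Igkv1-110, was called in 8 cells of Cre replicate 1, of which 2 were IgM, 4 Ighg2b and 2 Ighg3. Each library had its own leading heavy V segment by UMIs, namely Ighv1-80 in TKO replicate 1 (10.4% of heavy V UMIs), Ighv10-1 in TKO replicate 2 (21.5%), Ighv7-3 in Cre replicate 1 (18.9%) and Ighv1-18 in Cre replicate 2 (13.4%). In TKO replicate 1, Iglv1 took 40.1% of light chain V UMIs and was called in 22 cells. By the constant genes, only 14 cells of that library were lambda. Some Iglv1 calls therefore did not match the cell's light chain, and pairs with Iglv1, and repeats counted from them, are uncertain. In the other libraries the Iglv1 share was 19.0% in TKO replicate 2, 8.18% in Cre replicate 1 and 13.6% in Cre replicate 2.

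Of the 166 pairs, 159 were in 1 library, 6 in 2 libraries and 1 in 3 libraries. The pair in 3 libraries was Ighv11-2 with Igkv14-126. In mice this combination is known from B-1 cells, where it makes natural IgM antibodies to phosphatidylcholine. It was called in 6 and 0 cells of TKO libraries and in 4 and 3 cells of Cre libraries, and all 13 were IgM. UMIs of both segments, at any number, were found in 8 and 0 plasma cells of TKO libraries and 6 and 3 of Cre libraries. All 17 were IgM, and Il10 was detected in 5 of them, 3 and 0 in TKO libraries and 2 and 0 in Cre libraries. Among all IgM plasma cells it was found in 28 of 222, and the difference was not tested. None of 3195 B cells held UMIs of both segments. These B cells had only 3 UMIs of the heavy and 3 of the light segment in all, so use of the pair could not be read in them. Of 15041 fibroblasts, 1 held both. Igkv14-126 has a near copy in the genome annotation, so reads could have been split between them. The coding parts of both V exons are shown from GRCm38, 5′ to 3′ along the gene, because this pair of V names was called in the most libraries. Ighv11-2 lies at chr12:114048241-114048540 on the minus strand (the last 300 bases of the exon) and Igkv14-126 at chr6:67896345-67896642 on the plus strand, and capitals mark the codon of the last cysteine that follows a tyrosine or phenylalanine codon, at the start of the third hypervariable loop. These are germline letters, not reads from the cells.
Ighv11-2: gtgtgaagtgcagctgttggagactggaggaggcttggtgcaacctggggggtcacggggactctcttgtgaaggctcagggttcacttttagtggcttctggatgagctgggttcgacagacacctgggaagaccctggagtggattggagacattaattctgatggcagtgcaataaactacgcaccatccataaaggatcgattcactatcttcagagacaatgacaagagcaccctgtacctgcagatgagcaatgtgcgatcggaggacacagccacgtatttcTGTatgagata
Igkv14-126: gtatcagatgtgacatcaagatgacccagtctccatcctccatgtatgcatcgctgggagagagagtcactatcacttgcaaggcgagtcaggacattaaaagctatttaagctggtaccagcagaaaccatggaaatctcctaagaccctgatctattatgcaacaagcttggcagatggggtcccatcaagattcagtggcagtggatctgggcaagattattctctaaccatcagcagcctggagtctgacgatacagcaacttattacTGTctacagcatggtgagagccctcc

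The share of plasma cells among kept barcodes was lower in TKO than in Cre libraries, within a design that cannot reach significance. It was 0.664% (95% exact Clopper-Pearson interval 0.542% to 0.805%) and 0.404% (0.273% to 0.576%) in TKO libraries, against 1.09% (0.928% to 1.27%) and 1.27% (1.01% to 1.57%) in Cre libraries. The groups did not overlap, and the difference of means was -0.647 percentage points (exact permutation test, two-sided p = 0.333, the smallest p that 2 against 2 allows). Kept barcodes had a median of 1593 and 1409 UMIs in TKO libraries, against 2768 and 1683 in Cre libraries. Each kept barcode was also thinned to 1000 UMIs before the rule, an alternative chosen after seeing the data. The share was then 0.234% and 0.229% in TKO libraries, against 0.311% and 0.444% in Cre libraries. The thinned intervals of TKO replicate 1 (0.164% to 0.324%) and Cre replicate 1 (0.227% to 0.415%) overlapped. Of kept barcodes with at least 10% immunoglobulin UMIs, the rule took 101 of 178 and 27 of 51 in TKO libraries. In Cre libraries it took 147 of 182 and 70 of 140. Of cells gated as immune, plasma cells made up 2.46% and 1.27% in TKO libraries, against 2.63% and 3.27% in Cre libraries. Among B-lineage cells, that is plasma cells plus B cells, plasma cells made up 12.8% and 6.20% in TKO libraries, against 11.2% and 9.47% in Cre libraries, and the groups overlapped (difference of means -0.85 percentage points, exact permutation test, two-sided p = 1). Without TKO replicate 2 that difference was 2.44 points and without TKO replicate 1 it was -4.14 points.

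**Figure D4:**
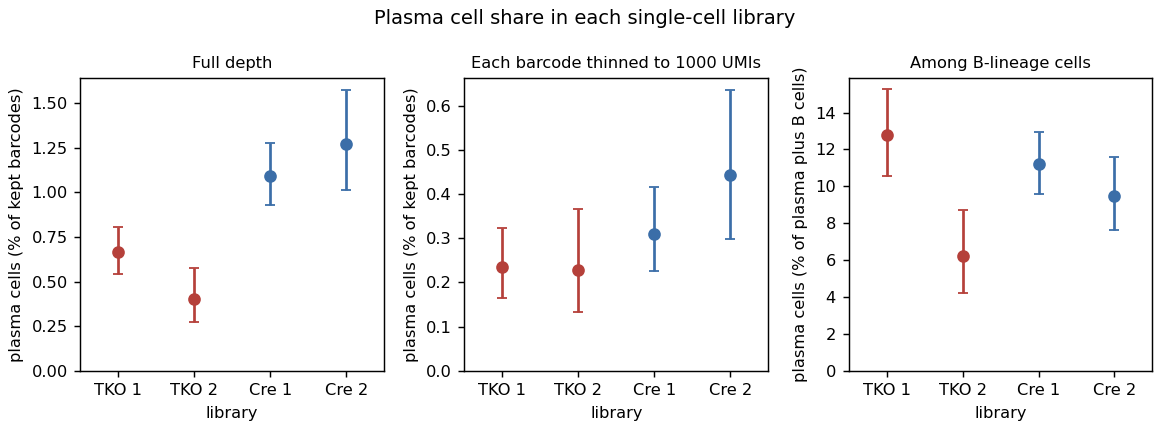
Points give plasma cells as a share (%) of kept barcodes, of kept barcodes thinned to 1000 UMIs, and of B-lineage cells, in each library with TKO left of Cre. Bars are 95% exact binomial intervals. The TKO points lie below the Cre points in the first 2 panels, with some intervals overlapping in the second, and overlap with them in the last.

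Within plasma cells, Top2a and Hist1h1b, genes of dividing cells, were lower and Col1a1, Col1a2 and Hbb-bt, genes of fibroblasts and red cells, were higher in TKO than in Cre libraries. UMIs summed per library were tested with edgeR's quasi-likelihood test and Benjamini-Hochberg adjustment. Of 3182 genes tested, 4 were higher (0.126%) and 5 lower (0.157%) in TKO plasma cells, while 33.5% of genes had groups that did not overlap. Top2a, which untangles DNA in dividing cells, had 3 and 1 UMIs in TKO plasma cells and 178 and 47 UMIs in Cre plasma cells. Its log2 fold change was -3.97 ± 0.48 (SE, adjusted p = 0.0134). Hist1h1b, a histone H1 gene, had 8 and 3 UMIs in TKO plasma cells and 275 and 71 UMIs in Cre plasma cells, with a log2 fold change of -3.13 ± 0.41 (adjusted p = 0.0174). Mki67, which encodes the proliferation antigen Ki-67, had 18 and 4 UMIs in TKO plasma cells and 257 and 58 UMIs in Cre plasma cells, and did not pass (log2 fold change -2.01 ± 0.37, adjusted p = 0.122). Of 15 proliferation genes, 8 were tested, all 8 had negative fold changes with a median of -1.33 against -0.00011 over all genes, and 1 passed with edgeR (Top2a), as 1 did with DESeq2. Neither passed without TKO replicate 1, where 1 TKO library was left: the log2 fold change was -3.79 for Top2a (adjusted p = 0.446) and -2.84 for Hist1h1b (adjusted p = 0.511). Neither passed without the cells that held 3 markers of another lineage, at -2.82 for Top2a (adjusted p = 0.388) and -2.06 for Hist1h1b (adjusted p = 0.992). Without the cells under 5% immunoglobulin UMIs Top2a passed (-4.09, adjusted p = 0.0338) and Hist1h1b did not (-3.48, adjusted p = 0.0536).

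Dividing cells were also counted one by one, as cells with at least 3 of 15 proliferation genes after thinning to 1000 UMIs. There were 0 of 102 and 1 of 30 in TKO libraries, against 13 of 158 and 14 of 83 in Cre libraries, or 0% and 3.33% against 8.23% and 16.9%. A count of 0 among the 102 cells allows a share of up to 2.94%. The groups did not overlap, and the mean difference was -10.9 percentage points (exact permutation test, two-sided p = 0.333, the smallest possible). Unthinned, the shares were 9.80% and 10% in TKO libraries and 19.0% and 26.5% in Cre libraries. In B cells the groups overlapped, with 3.59% and 8.59% in TKO libraries and 2.16% and 15.1% in Cre libraries after thinning. Whether the effect differs between plasma cells and B cells was not tested. Immunoglobulin genes made up a smaller share of UMIs in dividing cells. By the unthinned count their median was 28.3% and 0.805% in TKO libraries and 22.9% and 10.2% in Cre libraries. The other plasma cells had 39.6% and 35.0% in TKO libraries and 44.4% and 35.1% in Cre libraries. The value of TKO replicate 2 rests on 3 dividing cells. Dividing cells were also deeper, at a median of 4392.5 and 4018 UMIs in TKO libraries and 9523 and 4198.5 in Cre libraries. The other plasma cells had 3015.5 and 2584 in TKO libraries and 5874 and 2562 in Cre libraries. Amounts of immunoglobulin RNA per cell were not compared. Of the 12 plasma cells under 5% immunoglobulin UMIs, 10 counted as dividing, among them all 6 of Cre replicate 2, and whether these are plasma cells is uncertain. Without those 12 cells, a choice made after seeing the data, dividing cells after thinning were 0 of 102 and 0 of 27 in TKO libraries, against 11 of 155 and 10 of 77 in Cre libraries, or 7.10% and 13.0% in Cre libraries.

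Col1a1, a chain of type I collagen, had 267 and 75 UMIs in TKO plasma cells and 113 and 25 UMIs in Cre plasma cells, with a log2 fold change of 3.17 ± 0.31 (edgeR, adjusted p = 0.010). Col1a2, the other chain, had a log2 fold change of 2.58 ± 0.30 (adjusted p = 0.010) and Hbb-bt, a β-globin gene, one of 2.69 ± 0.33 (adjusted p = 0.0142). These are genes of fibroblasts and red cells, and their levels in other compartments are given beside them. Col1a1 was at 1205 and 1280 CPM in TKO plasma cells and 157.6 and 126.3 CPM in Cre plasma cells. B cells had 271 and 284 CPM in TKO libraries and 43.0 and 72.9 CPM in Cre libraries. Barcodes below the cell threshold had 2067 and 2257 CPM (of all UMIs) in TKO libraries and 476 and 512 CPM in Cre libraries. The part of free RNA and of mixed barcodes in these calls was not tested. Without TKO replicate 1, which leaves 1 TKO library, the log2 fold changes were 3.16 for Col1a1, 2.49 for Col1a2 and 2.81 for Hbb-bt, and none of them passed (adjusted p = 0.0905, 0.190 and 0.190). With at least 4 of 5 markers required of a cell 0 of 855 genes tested passed. Without the cells that held 3 markers of another lineage, 741 genes could be tested and 1 passed; Col1a1, Col1a2 and Hbb-bt were then below the filter and were not tested.

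Immunoglobulin genes made up the other 4 calls. Ighg3 had 15 and 0 UMIs in TKO plasma cells and 6293 and 859 UMIs in Cre plasma cells (edgeR, adjusted p = 0.010), in step with the 16 Ighg3 cells of Cre libraries. Igkv16-104 and Igkv9-124 had 0 and 0 UMIs in TKO plasma cells, against 349 and 63 UMIs of Igkv16-104 and 260 and 110 UMIs of Igkv9-124 in Cre plasma cells. Igkv4-74 had 55 and 10 UMIs in TKO plasma cells and 0 and 1 UMIs in Cre plasma cells. Igha had a log2 fold change of 1.86 and did not pass (adjusted p = 0.571). Outside the 5 markers, which chose the cells and are given no test, 0 of 16 tested identity genes, 0 of 23 ER folding genes and 0 of 23 secretory path genes were called, by edgeR or DESeq2, nor did any of them reach an unadjusted p under 0.05. Their median log2 fold changes were 0.11, -0.14 and 0.03. Of the other lists, 0 of 17 mature B cell, 0 of 12 homing, 0 of 12 survival, 0 of 3 niche, 0 of 4 secreted regulator and 0 of 7 Kruppel-like genes passed by either tool, with 0, 2, 0, 0, 1 and 1 at an unadjusted p under 0.05.

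Bulk libraries, which the cell rule did not use, also held plasma cell RNA. In bulk, fewer cells of a type and less RNA per cell cannot be told apart. No plasma identity gene was called between TKO and Cre in non-stripped aorta (0 of 19 tested), stripped aorta (0 of 22) or isolated fibroblasts (0 of 21). Over all genes edgeR called 0.119% in non-stripped aorta (0.0594% higher and 0.0594% lower), 0.024% in stripped aorta (0.012% each way) and 0.0638% in fibroblasts (0.0319% each way). At an unadjusted p under 0.05 the identity genes numbered 1 (lower), 6 (5 higher and 1 lower) and 4 (2 higher and 2 lower). DESeq2 called 0, 3 (2 higher and 1 lower) and 0 of them. In non-stripped aorta Jchain had 578, 459 and 481 counts in TKO libraries and 197, 451 and 549 counts in Cre libraries, with overlap (edgeR, log2 fold change 0.49 ± 0.38, adjusted p = 0.514). Igkc, the kappa constant gene, was at 51.8 ± 12.6 CPM over all genes in TKO libraries and 48.5 ± 26.4 CPM in Cre libraries (SD, n = 3 each), with edgeR's log2 fold change at 0.10 ± 0.40 (adjusted p = 0.920). Ighv11-2 had 14, 1 and 10 counts in TKO libraries and 66, 15 and 20 counts in Cre libraries, which did not overlap, as for 25.5% of all genes, and did not pass (edgeR, log2 fold change -1.71 ± 0.70, adjusted p = 0.251).

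In stripped aorta, Jchain, Mzb1, Igkc and Igha had more counts in both TKO libraries than in each of the 4 Cre libraries. None of them passed with edgeR, and Ighm overlapped. Of 22 tested plasma identity genes, 16 had positive and 6 negative fold changes, with a median log2 fold change of 0.097. All 24 secretory path genes and 20 of 23 ER folding genes had negative ones, with medians of -0.17 and -0.21. Jchain had 980 and 1463 counts in TKO libraries and 183, 133, 111 and 336 counts in Cre libraries. The groups did not overlap, as for 23.6% of all genes, and the log2 fold change was 2.88 ± 0.31 (edgeR, adjusted p = 0.0645). Igkc had 1991 and 6464 counts in TKO libraries and 426, 261, 224 and 874 counts in Cre libraries (log2 fold change 3.44 ± 0.52, adjusted p = 0.102). Igha had 2232 and 672 counts in TKO libraries and 222, 275, 195 and 523 counts in Cre libraries (log2 fold change 2.504 ± 0.49, adjusted p = 0.151). All 9 tested immunoglobulin constant genes had positive fold changes, with a median of 3.13 against 0.00125 over all genes, and edgeR called 0. Of these genes 7 had an unadjusted p under 0.05, and DESeq2 called 4. Mzb1 had 17 and 55 counts in TKO libraries and 7, 2, 1 and 6 counts in Cre libraries (log2 fold change 3.29 ± 0.69, adjusted p = 0.166). Jchain passed without Cre replicate 4 (adjusted p = 0.0380), with no filter on low counts (0.00363) and with DESeq2 (8.92e-15). Ighm, at 1514 and 7523 counts in TKO libraries and 1674, 920, 923 and 1558 counts in Cre libraries, passed without TKO replicate 1 (log2 fold change 2.68, adjusted p = 0.0264) and not without TKO replicate 2 (0.52, adjusted p = 0.657), fits in which the lone TKO library is assumed to vary like the Cre libraries. Of 18 tested mature B cell genes, 16 had positive fold changes, with a median log2 fold change of 0.40. Among the mature B cell genes, Ms4a1 had 7 and 58 counts in TKO libraries and 16, 5, 8 and 5 counts in Cre libraries. The part of B cells in the result was not tested. The difference between stripped and non-stripped aorta was not tested, since each has its own table.

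Isolated fibroblasts held little antibody RNA. Jchain had 72, 73 and 40 counts in TKO libraries and 35, 54 and 108 counts in Cre libraries (edgeR, log2 fold change -0.20 ± 0.49, adjusted p = 0.888). In TKO aorta given the IL-9 antibody or IgG, 32.1% of all genes were called, and members are read against that share. Jchain had 501 and 145 counts with the IL-9 antibody and 1869, 124 and 326 counts with IgG (edgeR, log2 fold change -1.57 ± 1.06, adjusted p = 0.297), and without IgG replicate 1 its log2 fold change was 0.11. Igha had 331 and 22 counts with the IL-9 antibody and 4305, 339 and 622 counts with IgG, which did not overlap, as for 59.8% of all genes, and did not pass (log2 fold change -3.67 ± 1.37, adjusted p = 0.0818). Ighd, the IgD constant gene of naive B cells, had 694 and 72 counts with the IL-9 antibody and 26, 18 and 14 counts with IgG (log2 fold change 3.95 ± 0.77, adjusted p = 0.00839). Ighg1 had 405 and 52 counts with the IL-9 antibody and 3, 11 and 4 counts with IgG (log2 fold change 4.90 ± 0.82, adjusted p = 0.00430). Of 9 tested immunoglobulin constant genes, 2 had positive and 7 negative fold changes, with a median log2 fold change of -0.86. Among these 9, 2 were called higher and 0 lower. Of the other lists, 0 plasma identity genes of 21 tested were higher and 3 lower, and of 23 mature B cell genes 8 were higher and 1 lower. All are read against backgrounds of 21% higher and 11% lower.

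**Figure D5:**
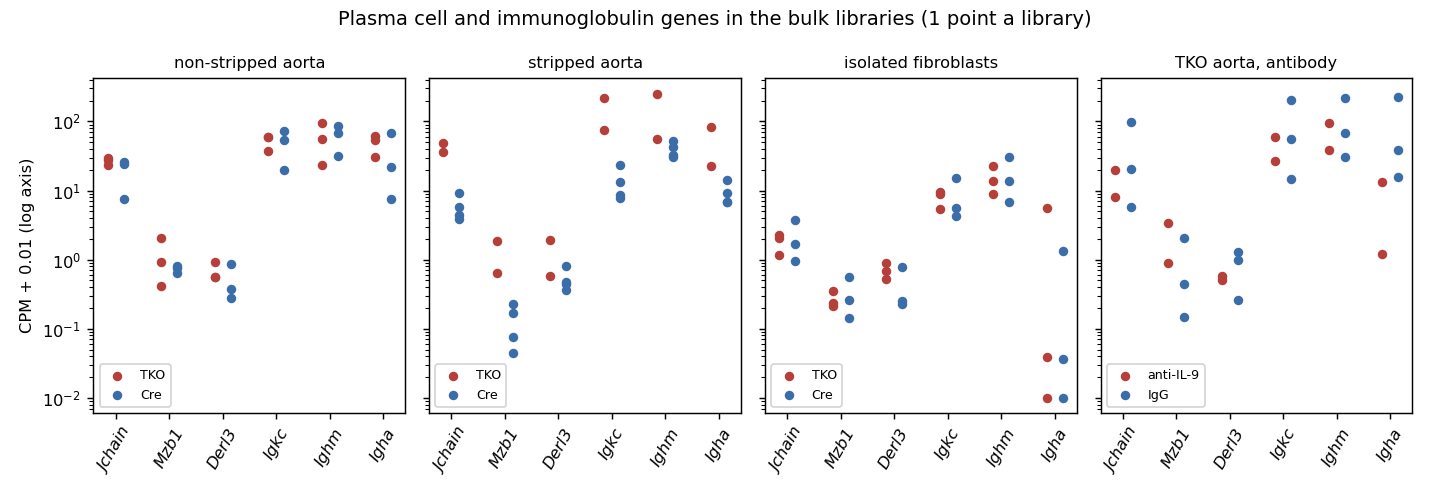
Each point is 1 bulk library, with CPM plus 0.01 on a log axis for 3 plasma cell genes and 3 immunoglobulin constant genes in the 4 count tables, TKO left of Cre and the IL-9 antibody left of IgG. In stripped aorta the 2 TKO libraries lie above the 4 Cre libraries for Jchain, Mzb1, Igkc and Igha, and in the other tables the groups overlap for Jchain. Points at 0.01 are libraries with 0 counts.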

How the data were processed

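Single cells were measured with 10x 3′ RNA-seq and bulk samples with RNA-seq. The deposited single-cell matrices hold UMI counts made with Cell Ranger 6.0.0, per the file headers. The deposited bulk tables hold raw gene counts, and the submitters' processing notes name GRCm38, Trimmomatic 0.36, STAR 2.5.2b and featureCounts of Subread 1.5.2. The members and gene lists were chosen with earlier results of these data known. Genes are named by a rule: the markers, the constant genes, Klf10, Il9 and Il9r, the genes of smallest adjusted p per direction, and up to 6 members of each list by level. Exceptions are stated beside them.

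Plasma cell UMIs were summed per library and tested with edgeR 4.0.16 (quasi-likelihood test, filterByExpr, TMM) in R 4.3.3 with Benjamini-Hochberg adjustment at 0.05. Bulk counts were tested in the same way within each table. DESeq2 1.42.0 was an alternative. The ± of a log2 fold change is its standard error. Shares were compared with exact permutation tests (scipy 1.17.1). The statistics were tested on simulated data. Bulk totals were 17179257 to 38633457 counts. A row with no gene name, at most 0.0025% of counts, and 1 column with no label were left out. Bulk tables list Jchain under its older symbol Igj. Immunoglobulin segments have near copies, so single segment counts are uncertain. Alternatives changed the marker rule, filters, normalization and libraries.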

Additional observations from a re-analysis of the deposited data

Results flagged for a closer look

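In stripped Cre aorta, replicate 4 lay far above the other 3 libraries for Ighg2b (1.54 CPM, a gap of 0.870 of the range of the group) and for Iglc2 (1.86 CPM, 0.881 of the range). These were 2 of 14 genes tested against Dixon's 95% limit, and chance flags about 1 in 20 groups.

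Outside the marker rule, 206 kept barcodes had at least 10% immunoglobulin UMIs, 77 and 24 in TKO libraries and 35 and 70 in Cre libraries. Fibroblasts of the same libraries had a median of at most 0.0817% immunoglobulin UMIs.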

How the results depend on the processing

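Among the plasma cell genes, 132 values of named genes kept their direction and side of the threshold over the alternatives, 31 gained a call, 18 lost one and 13 turned round. Causes were not tested. The share of plasma cells among kept barcodes kept its direction in every alternative run, at -0.776 to -0.517 percentage points when 1 library was left out and at -1.26 (at least 2 markers) to -0.146 (barcodes thinned) over the others. So did the IgA share, at 7.29 to 26.1 points when 1 library was left out and at 11.1 (at least 2 markers) to 30.6 (at least 4 markers) over the others. The share of B-lineage cells was 0.17 with at least 2 markers, 1.36 with at least 10% immunoglobulin UMIs in place of the markers, and -4.14 to 2.44 with 1 library left out. The 9 genes called between TKO and Cre plasma cells became 20 with DESeq2, 104 with no filter on low counts, 4 with at least 2 markers, 0 with at least 4 markers, 1 without cells with markers of another lineage and 0 to 106 with 1 library left out (0 without TKO replicate 1, 106 without TKO replicate 2, 45 without Cre replicate 1, 77 without Cre replicate 2). The 6 genes of IgA against IgM became 21 with no filter, 1 without the library block, and 0 to 9 with 1 library left out (0 without Cre replicate 2).

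Libraries share replicate numbers, but the labels do not say that these pair them. Deviations from the group means correlated at 0.167 between libraries of the same number over 3182 genes. With 2 libraries a group, crossed numbers must give -0.167, so this is 1 value and cannot settle the pairing. A replicate block gave 18 genes, and left the share at -0.647 and the IgA share at 16.7.

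Bulk counts of called genes changed with the tool and with the filter. Non-stripped aorta had 18 with edgeR, 796 with DESeq2, 766 with no filter and 0 to 486 with 1 library left out. Stripped aorta had 4, 577, 64 and 0 to 30, and fibroblasts 10, 417, 682 and 3 to 10. The IL-9 antibody comparison had 5277, and 3516 to 4793 with 1 library left out.

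The log2 fold changes that turned round in plasma cells were, for Ighm, -0.22 with no filter, -0.24 with at least 2 markers, -0.62 with at least 4, -0.10 without cells of mixed markers, -0.30 without dividing cells and -0.56 to 0.80 with 1 library left out. For Igkc they were -0.14, -0.15, -0.0036 with at most 10% mitochondrial UMIs, -0.26 without dividing cells and -0.21 to 0.32 with 1 library left out. In bulk, with 1 library left out, non-stripped aorta gave Mzb1 -0.13 to 1.018, Igkc -0.28 to 0.50 and Ighm -0.62 to 0.29. Fibroblasts gave Jchain -0.57 to 0.49, Igkc -0.39 to 0.68 and Ighm -0.57 to 0.58. The IL-9 antibody comparison gave Jchain -2.41 to 0.11, Mzb1 -0.024 to 2.93, Igkc -1.79 to 0.27 and Ighm -1.50 to 0.43.

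With 30 plasma cells in TKO replicate 2, shares there have wide counting intervals, and genes with few UMIs per library cannot show a difference between genotypes.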

Other observations

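Factors known to attract or keep plasma cells were found in other cell classes of the same libraries. Tnfsf13 encodes APRIL, the ligand of BCMA. Macrophages and monocytes had 60.8 and 70.7 CPM (of all UMIs) of it in TKO libraries and 90.9 and 62.9 CPM in Cre libraries. Mesothelial cells had 135 and 82.9 CPM in TKO libraries and 53.7 and 38.8 CPM in Cre libraries, from 4 to 27 UMIs a library. Tnfsf13b, which encodes BAFF, was at 26.7 and 20.4 CPM in fibroblasts of TKO libraries and at 27.4 and 18.7 CPM in those of Cre libraries. Il6, a plasma cell growth factor, was at 37.6 and 73.3 CPM in fibroblasts of TKO libraries and at 67.6 and 35.7 CPM in those of Cre libraries. Cxcl12, the ligand of CXCR4, was at 619 and 944 CPM in endothelial cells of TKO libraries and at 921 and 726 CPM in those of Cre libraries. The TKO and Cre libraries overlapped in each case but Tnfsf13 in mesothelial cells, where TKO was higher, and no test was run.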
